A study of Mus musculus with 12 samples.

Results

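Cytosolic ribosomal proteins are the protein part of the ribosomes that translate nuclear-encoded mRNA. Their genes were taken here by name: Rpl or Rps followed by a number and at most 1 letter, together with Rplp0, Rplp1, Rplp2 and Rpsa, leaving out the Rps6k kinases and names ending in -ps. This gave 58 genes of the 25206 probe sets on the array, 37 of the large (60S) and 21 of the small (40S) subunit, each with 1 probe set. The reference gene table of mouse assembly GRCm38.p6 classes 56 of them as protein-coding and 2, Rpl6l and Rps4l, as pseudogenes. It holds 81 protein-coding names that fit the rule, and the other 25, among them Rps6, Rpl11, Rps27a, Rplp2, Rpl13a, Rpl32, Rpl38, Rpl39 and Rps4x, were not analysed here.

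The samples were female mouse pluripotent cells on a C57BL/6 background, either induced pluripotent stem cells (iPSC, somatic cells reprogrammed to pluripotency) or embryonic stem cells (ESC). Each type was stained with TMRM, a fluorescent cation that collects in mitochondria with their membrane potential, and sorted by flow cytometry. The 4 groups were iPSC high, iPSC low, ESC high and ESC low, with 3 arrays each, numbered 2, 3 and 4. The sources name no engineered allele and no drug beyond what the shared medium holds. All groups shared undifferentiated culture without serum or feeder cells in 2iLIF medium, the dye and the sort. The sort was on dye content, so "high" and "low" below name the sorted fractions. The sources do not say how many lines or clones each cell type stands for, nor whether arrays of a group came from separate cultures, so p-values measure only how far these samples scatter, and that scatter may be technical.

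Each ribosomal protein binds a defined place on ribosomal RNA in the nucleolus, nucleus or cytoplasm, and most are needed for a subunit to mature. Their mRNAs begin with a terminal oligopyrimidine (TOP) tract, through which mTORC1 signalling controls their translation, so mRNA level and protein synthesis can part ways. When assembly fails, free Rpl5 and Rpl11, bound to 5S ribosomal RNA, hold back Mdm2, the ubiquitin ligase that degrades p53, and Rps7 is among the other ribosomal proteins known to bind Mdm2.

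At an adjusted p under 0.05 (limma) the averaged comparisons below called 3 genes: Rpl37, higher in the high fractions, and Rps7 and Rpl5, lower in iPSC. Rpl37 made up 1.72% of the ribosomal protein genes, where 1.6% of all probe sets were called higher. Rps7 and Rpl5 made up 3.45%, where 1.96% of all probe sets were called lower. The call of Rpl37 was lost when any of 8 of the 12 arrays was left out. The promoters of these 3 are shown because ribosomal protein genes are known for short promoters with ETS-type elements close to a pyrimidine-rich start. The sequences are from RefSeq (GRCm38.p6), cover 90 bases before and 10 from the annotated start, and run 5′ to 3′ on the gene's strand, with CGGAAG or its reverse complement CTTCCG, an ETS-type core, in capitals. They lie at chr15:5116523-5116622 (plus strand, Rpl37), chr12:28635944-28636043 (minus strand, Rps7) and chr5:107900438-107900537 (plus strand, Rpl5).
Rpl37: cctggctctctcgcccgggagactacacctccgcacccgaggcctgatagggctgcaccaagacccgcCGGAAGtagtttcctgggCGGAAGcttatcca
Rps7: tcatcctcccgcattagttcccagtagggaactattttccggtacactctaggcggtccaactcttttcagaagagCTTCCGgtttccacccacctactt
Rpl5: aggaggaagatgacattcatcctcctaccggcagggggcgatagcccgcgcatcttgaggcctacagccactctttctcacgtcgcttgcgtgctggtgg
The core occurred 2 times in the Rpl37 window, 1 time in that of Rps7 and 0 times in that of Rpl5. Over the table's 300-base promoters (250 before to 50 from the start), 28 of the 44 ribosomal protein genes that had an entry held CGGAAG on either strand (63.6%), as did 5075 of all 27025 genes (18.8%). The pyrimidine run CTCTTT, or AAAGAG on the other strand, was in 19 of 44 (43.2%) and in 6929 of 27025 (25.6%). Matches to one motif cannot overlap matches to the other, and a match describes letters, not a bound site.

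The 12 arrays had log2 medians of 3.51 to 3.61. The mean over 15 pluripotency genes was 8.42 to 8.57 in the iPSC arrays and 8.32 to 8.50 in the ESC arrays. These ranges overlap, so they bear on pluripotency and do not tell iPSC from ESC. Not all of these genes were high: Dppa5a averaged 3.91 and Pou5f1 6.03 over the 12 arrays. Over 15 fibroblast genes the mean was 2.85 to 2.98 in iPSC and 2.89 to 3.02 in ESC, although Vim alone averaged 9.35. The blood and macrophage (9 genes), endoderm (10) and neural and mesoderm (10) lists had array means of 3.23 to 3.84, although Cd68 alone averaged 8.68. A single gene of those lists differed between fractions, the lysosomal and macrophage protein Cd68, higher in the high fractions by 0.82 ± 0.09, and 1 between cell types, the endoderm factor Hnf4a, higher in iPSC by 0.67 ± 0.10. The part of such cells in the results below was not tested.

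The ribosomal protein probe sets spanned most of the array's range. Of the 58, 41 had a mean above the median probe set (3.562), 13 lay between the lower quartile (2.151) and the median, and 4 were under the lower quartile. Those 4 were Rpl10 at 1.38, Rpl32l at 1.83, Rpl9 at 1.91 and Rps29 at 2.11, and Rps2 stood just above at 2.22. At the other end were Rpl4 at 11.04, Rplp1 at 10.44, Rpl22 at 10.35, Rpl8 at 10.03 and Rps21 at 9.48. Ribosomal protein mRNAs are textbook examples of abundant transcripts, and a probe set's value also depends on its probes, so these values do not order the genes by mRNA amount. The deposited values carry no detection calls, and near-identical processed pseudogenes, which this gene family has in number, could add to or split a probe set's signal. Within groups the ribosomal probe sets varied more than others of like level: their median SD was 0.20 above the median level, against 0.15 over all probe sets there, and 0.25 against 0.18 in the class below.

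**Figure D1:**
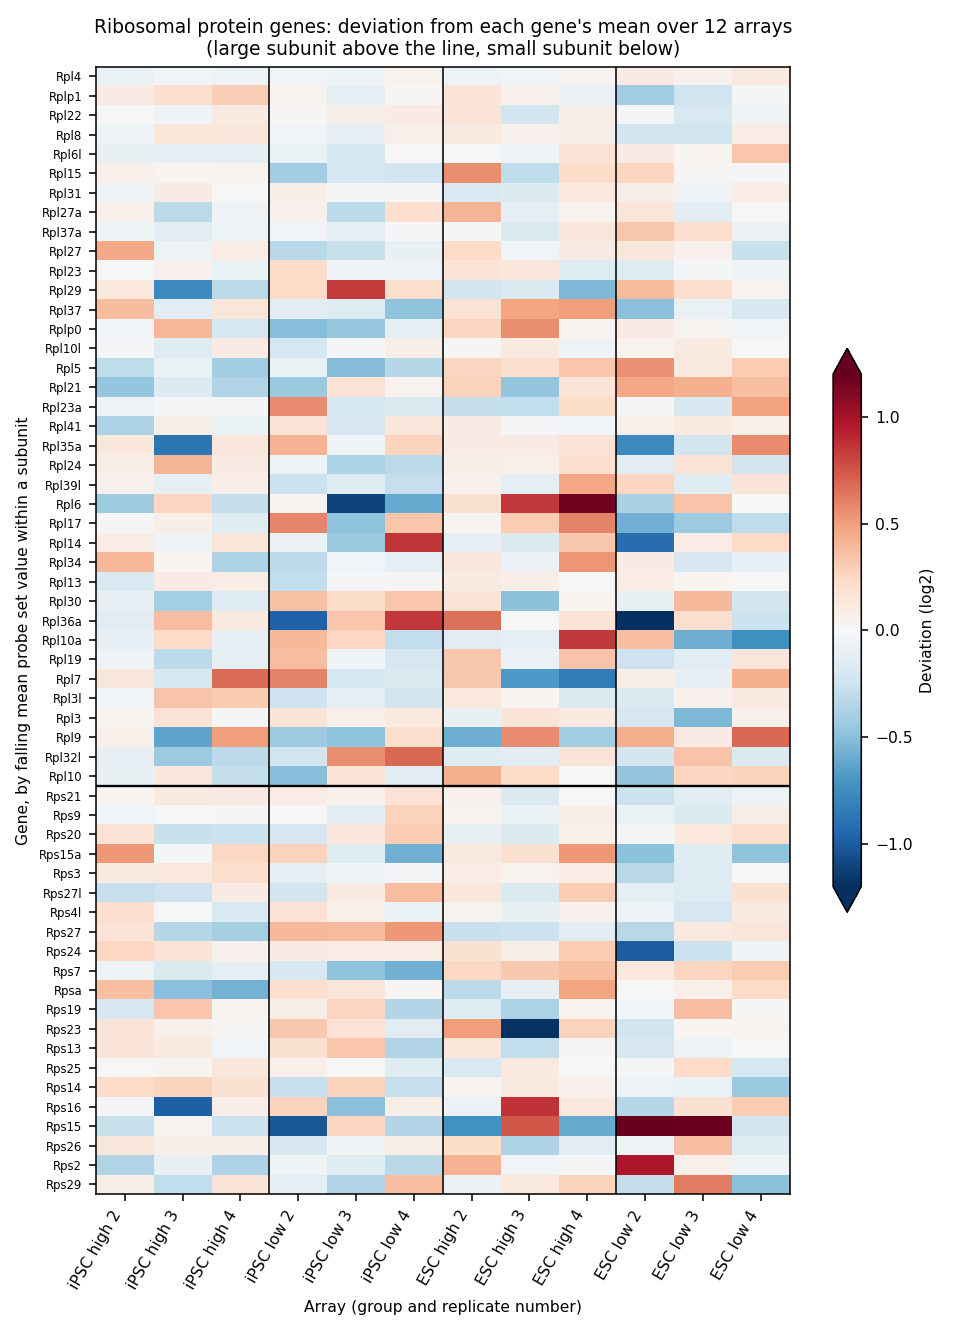
Log2 deviation of each of the 58 ribosomal protein probe sets (down the page, large subunit then small, by mean) from its own mean over the 12 arrays (across, by group and replicate number). Red is above and blue below the gene's mean. No group is red or blue throughout, and deviations beyond 1 occur for Rps15 (3 arrays), Rpl6 (2), Rpl36a (1) and Rps23 (1).

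The first question was whether the ribosomal protein mRNAs differ with the sorted fraction. Few passed the test, and their median lay close to that of all probe sets. Averaged over both cell types, 1 of 58 genes was higher in the high fractions and 0 were lower at an adjusted p under 0.05 (limma, adjusted over all 25206 probe sets), where 1.6% of all probe sets were called higher and 0.905% lower. At an unadjusted p under 0.05, 12 of 58 were higher (20.7%, against 7.97% of all probe sets) and 4 lower (6.9%, against 7.65%). The median difference was 0.03 over the ribosomal proteins and 0.00 over all probe sets, and 35 of 58 were above 0 (60.3%, against 50.9%). Of the 41 genes with a level above the median probe set, 25 differed by more than 0, with a median of 0.02. At that level 42.7% of all probe sets were above 0, with a median of -0.02. Between the lower quartile and the median level it was 8 of 13, against 63.3% of all probe sets there. In the large subunit 23 of 37 were above 0 with a median of 0.04, and in the small subunit 12 of 21 with a median of 0.00. The mean over the 58 genes was 5.117 ± 0.0364 in iPSC high and 5.109 ± 0.0269 in iPSC low, and 5.201 ± 0.0683 in ESC high and 5.135 ± 0.0594 in ESC low (SD, n = 3 arrays). Those means overlapped between the fractions of both cell types. For 35 of the 58 genes the 95% interval of the averaged difference lay within 0.5 on either side of 0, and for 55 within 1. In bulk samples, fewer cells with an mRNA and less of it per cell cannot be told apart.

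Within the single cell types no ribosomal protein gene passed. In iPSC 0 of 58 were called in either direction by limma (0.349% of all probe sets higher, 0.198% lower), and 11 had an unadjusted p under 0.05 (12.7% of all probe sets), 7 of them higher (7.04%). The arrays of the fractions did not overlap for 9 genes that were higher (9.76% of all probe sets) and 3 that were lower (9.57%). In ESC 0 of 58 were called (0.305% higher, 0.0516% lower), and 9 had an unadjusted p under 0.05 (8.29%), 7 of them higher (4.52%). There, 6 genes were higher without overlap (6.71%) and 3 lower (6.36%). The medians over the ribosomal proteins were 0.01 in iPSC and 0.07 in ESC, against 0.00 and 0.00 over all probe sets. Over the 41 genes above the median level they were -5.3e-05 and 0.07, against -0.04 and -0.01 over all probe sets there.

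The gene called was Rpl37, a small zinc-binding protein of the large subunit. It measured 5.40, 4.89 and 5.17 in iPSC high against 4.89, 4.87 and 4.53 in iPSC low, and 5.20, 5.49 and 5.53 in ESC high against 4.52, 4.94 and 4.83 in ESC low. All high arrays stood above all low arrays of their cell type, although in iPSC the nearest arrays were equal to 2 decimals. The averaged difference was 0.51 ± 0.11 (SE, adjusted p = 0.0306, limma). It was 0.39 ± 0.16 in iPSC (adjusted p = 0.33, limma) and 0.64 ± 0.16 in ESC (adjusted p = 0.148, limma), so neither cell type passed alone. The averaged call was lost when any of 8 single arrays was left out (iPSC high 2 and 4, iPSC low 3 and 4, ESC high 3 and 4, ESC low 2 and 4), with adjusted p-values of 0.052 to 0.0801 and differences of 0.45 to 0.58 over the 12 omissions.

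The largest averaged difference was that of Rpl6, at 0.58 ± 0.22, and it did not pass (adjusted p = 0.215, limma). Rps15a, a small subunit protein, had the averaged difference closest in size to that of Rpl37. Its values were 8.06, 7.52 and 7.78 in iPSC high against 7.81, 7.39 and 6.95 in iPSC low, and 7.64, 7.71 and 8.06 in ESC high against 7.04, 7.38 and 7.05 in ESC low. The fractions did not overlap in ESC and did in iPSC. The high array was the higher in 6 of 6 pairs of equal replicate number, which in ESC follows from the lack of overlap. This was also so for Rpl13, Rpl37, Rps3 and Rps7, and the share over all probe sets was not taken. The difference of 0.52 ± 0.14 did not pass (adjusted p = 0.0861, limma). With the replicate number as a block within each cell type it passed (adjusted p = 0.0475), which made 2 ribosomal protein genes higher in place of 1, and over all alternatives its adjusted p ranged from 0.0247 to 0.173.

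The lowest averaged differences belonged to Rpl29 and Rps27. Rpl29, a large subunit protein that also binds heparin, measured 5.16, 4.27 and 4.71 in iPSC high against 5.26, 5.87 and 5.25 in iPSC low, and 4.80, 4.86 and 4.49 in ESC high against 5.42, 5.24 and 5.07 in ESC low. Every high array was below every low array of its cell type, and the averaged difference was -0.64 ± 0.15 (adjusted p = 0.0505, limma). It lay just outside the threshold, and passed or failed with the settings tried (adjusted p from 0.0208 to 0.118, with 0.0289 for the replicate number as a random block and 0.0813 for it as a fixed block). Rps27, a zinc-finger protein of the small subunit, measured 6.74, 6.23 and 6.18 in iPSC high against 6.96, 6.95 and 7.09 in iPSC low, and 6.31, 6.32 and 6.45 in ESC high against 6.24, 6.69 and 6.72 in ESC low. The fractions were apart in iPSC, where the difference was -0.62 ± 0.16 (adjusted p = 0.102, limma), and overlapped in ESC, where it was -0.19 ± 0.16. Its average was -0.41 ± 0.11 (adjusted p = 0.0833, limma). With the replicate number as a random block it passed in iPSC (adjusted p = 0.0481) and averaged (0.0411), so that 2 genes, Rpl29 and Rps27, were lower in place of 0. With a fixed block it did not pass (adjusted p = 0.0906 in iPSC and 0.0713 averaged). Over all alternatives its adjusted p ranged from 0.0481 to 0.308 in iPSC and from 0.0229 to 0.183 averaged, the lowest averaged values coming without iPSC high 2 (0.0229) and ESC low 2 (0.039). Its paralog Rps27l, a p53 target in human and mouse cells, had an averaged difference of -0.06 ± 0.12, with 6.55, 6.58 and 6.92 in iPSC high against 6.61, 6.93 and 7.19 in iPSC low, and 6.96, 6.65 and 7.13 in ESC high against 6.72, 6.67 and 7.01 in ESC low.

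**Figure D2:**
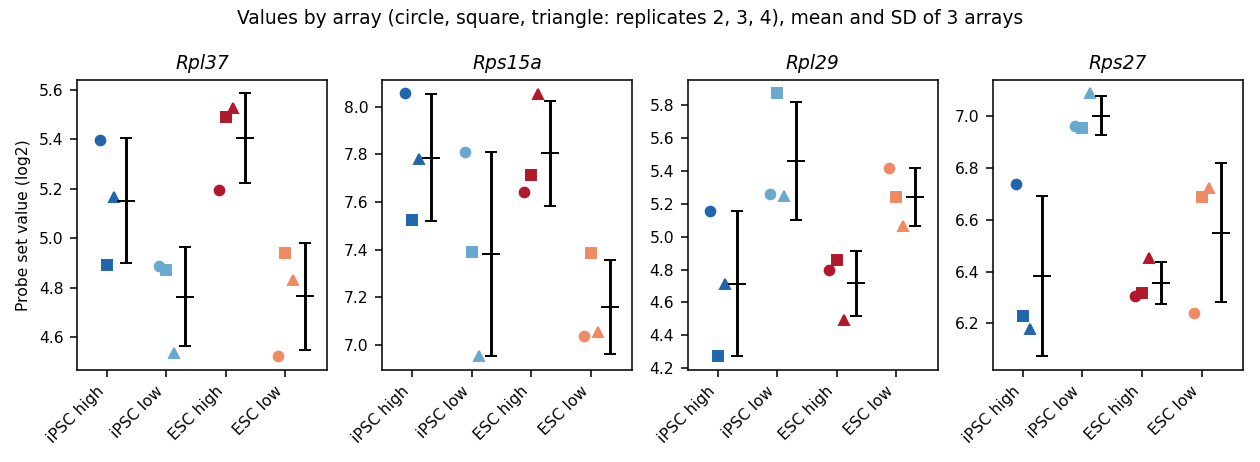
Log2 probe set values of Rpl37, Rps15a, Rpl29 and Rps27 on each array, by group, with symbols for the replicate number and a bar for mean ± SD of 3 arrays (each panel has its own axis, not starting at 0). Rpl37 sits higher and Rpl29 lower in the high than in the low fraction of both cell types.

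Across both cell types 2 genes were higher without overlap, Rpl37 and Rps3 (1.98% of all probe sets), and 1 was lower, Rpl29 (1.83%). Rps3, a protein at the mRNA entry channel that also acts in DNA repair, measured 7.44, 7.47 and 7.54 in iPSC high against 7.22, 7.29 and 7.31 in iPSC low, and 7.43, 7.38 and 7.43 in ESC high against 7.01, 7.18 and 7.34 in ESC low. The averaged difference was 0.22 ± 0.07 (adjusted p = 0.121, limma). Rpl24, which forms a bridge to the small subunit, differed by 0.31 ± 0.09 (adjusted p = 0.119, limma), and by 0.44 ± 0.13 in iPSC, the largest value there.

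The stalk of the large subunit, which recruits elongation factors, is built on Rplp0 with the acidic proteins Rplp1 and Rplp2. Rplp1 measured 10.55, 10.64 and 10.74 in iPSC high against 10.47, 10.34 and 10.46 in iPSC low, and 10.61, 10.49 and 10.38 in ESC high against 10.03, 10.20 and 10.43 in ESC low. The fractions were apart in iPSC but overlapped in ESC, and the averaged difference of 0.25 ± 0.08 did not pass (adjusted p = 0.146, limma). Rplp0, often used as a reference gene, measured 4.92, 5.35 and 4.74 in iPSC high against 4.44, 4.50 and 4.84 in iPSC low, and 5.21, 5.52 and 4.98 in ESC high against 5.05, 4.99 and 4.92 in ESC low. Its averaged difference was 0.33 ± 0.12 (adjusted p = 0.20, limma), with overlap in both cell types. Rplp2 was not analysed here.

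Several other large subunit genes had wide differences that did not pass. In ESC these were Rpl6, whose protein has been linked to DNA damage sites, at 0.75 ± 0.31, Rpl17, at the peptide exit tunnel, at 0.75 ± 0.22, and Rpl36a at 0.72 ± 0.43. The lowest values in ESC were -0.92 ± 0.44 for the small subunit protein Rps15, -0.55 ± 0.33 for Rpl9, -0.53 ± 0.31 for Rpl7, -0.53 ± 0.22 for Rpl29 and -0.43 ± 0.19 for Rpl21. Rps15, Rpl9, Rpl7 and Rpl36a had values below the median probe set, and their arrays overlapped. In iPSC, Rpl6 and Rplp0 stood at 0.41 ± 0.31 and 0.41 ± 0.17, and Rpl3l, the striated muscle paralog of Rpl3, at 0.40 ± 0.12. At the lower end in iPSC were Rpl32l at -0.62 ± 0.22, Rpl30, which binds its own transcript in yeast, at -0.52 ± 0.18, and Rpl35a at -0.41 ± 0.31. Rpl6l, a pseudogene copy, and Rpl4, at the exit tunnel, averaged -0.05 ± 0.07 and -0.08 ± 0.06.

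Whether the fraction difference itself differed between the cell types was tested as the iPSC difference minus the ESC difference. By limma, 0 of 58 genes passed, as did 0% of all probe sets, and 2 of 58 had an unadjusted p under 0.05 (4.36% of all probe sets). Rpl17 was 1 of them, at -0.91 ± 0.32 (adjusted p = 1.0, limma): it measured 4.16, 4.23 and 4.01 in iPSC high against 4.74, 3.67 and 4.49 in iPSC low, and 4.19, 4.46 and 4.74 in ESC high against 3.58, 3.71 and 3.85 in ESC low. The fractions overlapped in iPSC and were apart in ESC. Rpl3l was the other, at 0.41 ± 0.18 (adjusted p = 1.0, limma). Rps24, a small subunit protein mutated in human Diamond-Blackfan anaemia, measured 6.61, 6.53 and 6.41 in iPSC high against 6.46, 6.45 and 6.45 in iPSC low, and 6.54, 6.44 and 6.66 in ESC high against 5.37, 6.11 and 6.32 in ESC low. The ESC fractions were apart, with 1 low array at 5.37 furthest down, and the ESC difference was 0.62 ± 0.19 (adjusted p = 0.285, limma), or 0.33 without that array.

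**Figure D3:**
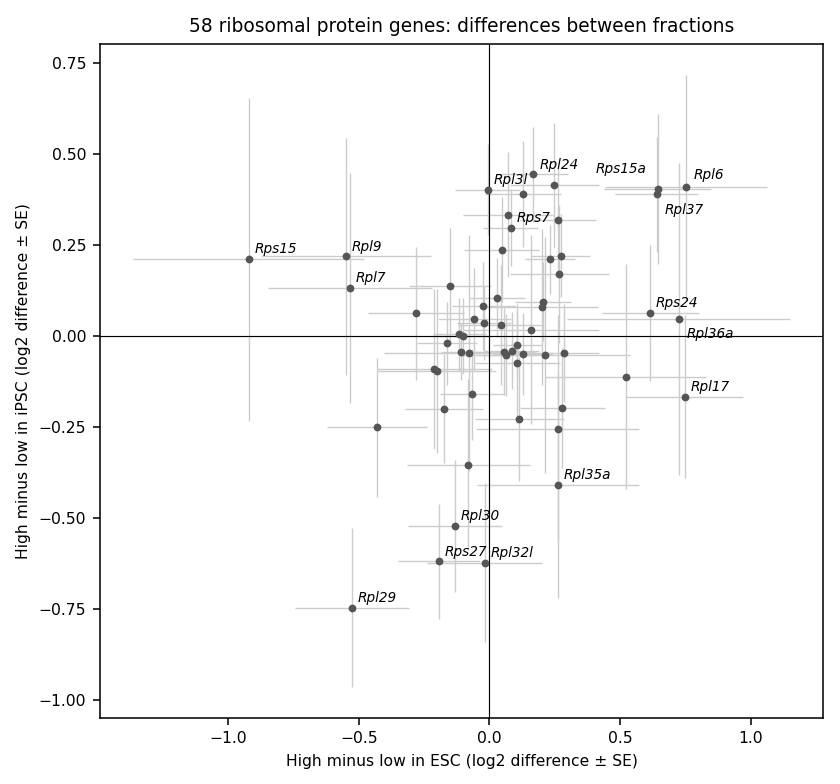
High minus low difference in iPSC (y axis, log2) against that in ESC (x axis, log2) for the 58 genes, with SE as bars. Rpl37, Rps15a and Rpl6 lie to the upper right and Rpl29 to the lower left, and most genes lie within 0.5 of 0 on both axes.

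Other genes of ribosome production and translation gave no calls between fractions. For the average of both cell types, limma called 0 of 82 measured ribosome assembly and rRNA processing factors (4 at an unadjusted p under 0.05, where 15.6% of all probe sets were, median -0.02), 0 of 17 genes of the RNA polymerase I machinery (1 unadjusted, median 0.01) and 0 of 17 chaperones and importers of ribosomal proteins (2 unadjusted, median -0.01). It also called 0 of 15 elongation and initiation factors with TOP mRNAs (1 unadjusted, median 0.06), 0 of 25 other initiation factors (0 unadjusted, median -0.02), 0 of 20 genes of mTORC1 and TOP mRNA control (4 unadjusted, median -0.07) and 0 of 16 ribosome rescue factors (1 unadjusted, median -0.01). Of 4 ribosomal proteins outside the name rule (Fau, Rps3a1, Rpl7l1 and Rpl36al), 0 were called and 1, Fau, had an unadjusted p under 0.05, with a difference of -0.23 ± 0.10. The lists that did move with the fraction are given beside them. Of 24 G2 and mitosis genes 15 were called higher in the high fractions (1.6% of all probe sets, list median 0.37), the mitotic kinase Aurka by 0.85 ± 0.09. Of 25 p53 targets 8 were called lower (0.905% of all probe sets, list median -0.36), with Trp53inp1, a stress-induced p53 partner, at -0.91 ± 0.10. Both lists were known from earlier results of these data, and their part in the values of Rpl37 and the other ribosomal genes was not tested.

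The second question was how ribosomal protein mRNAs differ between the cell types. Averaged over the fractions, 0 of 58 genes were higher and 2 lower in iPSC than in ESC at an adjusted p under 0.05 (limma), where 0.916% of all probe sets were called higher and 1.96% lower. At an unadjusted p under 0.05 there were 10 of 58 (14.7% of all probe sets). The median difference was 0.01 over the ribosomal proteins and 0.01 over all probe sets, and 30 of 58 were above 0, as were 53.3% of all probe sets. The 95% interval lay within 0.5 of 0 for 41 of the 58 genes and within 1 for 56. In the large subunit 17 of 37 were above 0 (median -0.07), and in the small subunit 13 of 21 (median 0.04). All 5 ribosomal protein genes on chromosome 5, described below, are large subunit genes and were below 0, so the subunits also differ in chromosome.

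Rps7, the Mdm2-binding protein of the small subunit that is mutated in some human Diamond-Blackfan anaemia, had the lowest adjusted p. In the high fraction it measured 5.84, 5.73 and 5.79 in iPSC against 6.16, 6.23 and 6.27 in ESC, and in the low fraction 5.71, 5.43 and 5.33 in iPSC against 6.04, 6.16 and 6.21 in ESC. All 6 iPSC arrays were below all 6 ESC arrays. The averaged difference was -0.54 ± 0.07 (adjusted p = 0.00266, limma). It was -0.43 ± 0.11 in the high fraction (adjusted p = 0.135, limma) and -0.65 ± 0.11 in the low fraction (adjusted p = 0.0249, limma). The averaged call held under every alternative run, with adjusted p-values of 0.00132 to 0.0103. The call in the low fraction alone was lost when the fit used only its 6 arrays (adjusted p = 0.161) and without ESC low 2, 3 or 4 or iPSC low 3 or 4 (up to 0.0926).

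Rpl5, the 5S ribosomal RNA binding partner of Rpl11, was the other gene called. In the high fraction it measured 4.56, 4.79 and 4.45 in iPSC against 5.13, 5.06 and 5.20 in ESC, and in the low fraction 4.79, 4.35 and 4.52 in iPSC against 5.41, 4.98 and 5.17 in ESC. Again all 6 iPSC arrays were below all 6 ESC arrays, which was so for 2 of 58 genes (1.75% of all probe sets), with 0 of 58 above (1%). The averaged difference was -0.58 ± 0.10 (adjusted p = 0.00816, limma), and every alternative run kept the call, with adjusted p-values of 0.00485 to 0.0289. Rpl11 was not analysed here. Of 25 p53 targets, 0 were called between the cell types by limma, where 0.916% of all probe sets were called higher and 1.96% lower. At an unadjusted p under 0.05 there were 6, 3 in each direction (14.7% of all probe sets), and the median was -0.01. Any link of these targets to the values of Rps7 or Rpl5 was not tested.

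In the high fraction alone, 0 of 58 genes were called by limma (0.0714% of all probe sets higher, 0.115% lower), and 4 had an unadjusted p under 0.05 (9.52%). The arrays did not overlap for 2 genes higher in iPSC (8.16%) and 4 lower (7.59%). In the low fraction alone, 0 of 58 were higher (0.171%) and 1, Rps7, was lower (0.226%), and 14 had an unadjusted p under 0.05 (11.2%). There the arrays did not overlap for 5 higher (8.04%) and 8 lower (7.79%).

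Rpl6 had the lowest difference, -0.71 ± 0.22, and did not pass (adjusted p = 0.119, limma). In the high fraction it measured 3.80, 4.48 and 3.93 in iPSC against 4.41, 5.07 and 5.39 in ESC, and in the low fraction 4.26, 3.11 and 3.62 in iPSC against 3.83, 4.56 and 4.22 in ESC. The cell types overlapped in both fractions. Rpl21, mutated in a human form of hair loss, differed by -0.40 ± 0.14 (adjusted p = 0.157, limma), with 4.21, 4.51 and 4.31 in iPSC high against 4.95, 4.20 and 4.82 in ESC high, and 4.23, 4.84 and 4.71 in iPSC low against 5.13, 5.09 and 5.03 in ESC low. They overlapped in the high fraction through 1 ESC array at 4.20 and were apart in the low fraction. Without that array, ESC high 3, the difference was -0.52 and passed (adjusted p = 0.0369, limma), which made 3 genes lower in place of 2, and over all alternatives the adjusted p was 0.0369 to 0.295.

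The other differences named by size did not pass. At the lower end were Rps15 at -0.54 ± 0.31 and Rps2, at the mRNA entry channel, at -0.45 ± 0.16. At the upper end were Rpl7 at 0.27 ± 0.22, Rps24 at 0.25 ± 0.13, Rps27 at 0.24 ± 0.11, Rps23, in the decoding centre, at 0.19 ± 0.23, and Rps21 at 0.19 ± 0.07 (adjusted p = 0.176, limma). Rps21 measured 9.51, 9.60 and 9.58 in iPSC high against 9.53, 9.30 and 9.48 in ESC high, and 9.57, 9.54 and 9.65 in iPSC low against 9.22, 9.35 and 9.42 in ESC low. Its arrays overlapped in the high fraction and were apart in the low one.

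**Figure D4:**
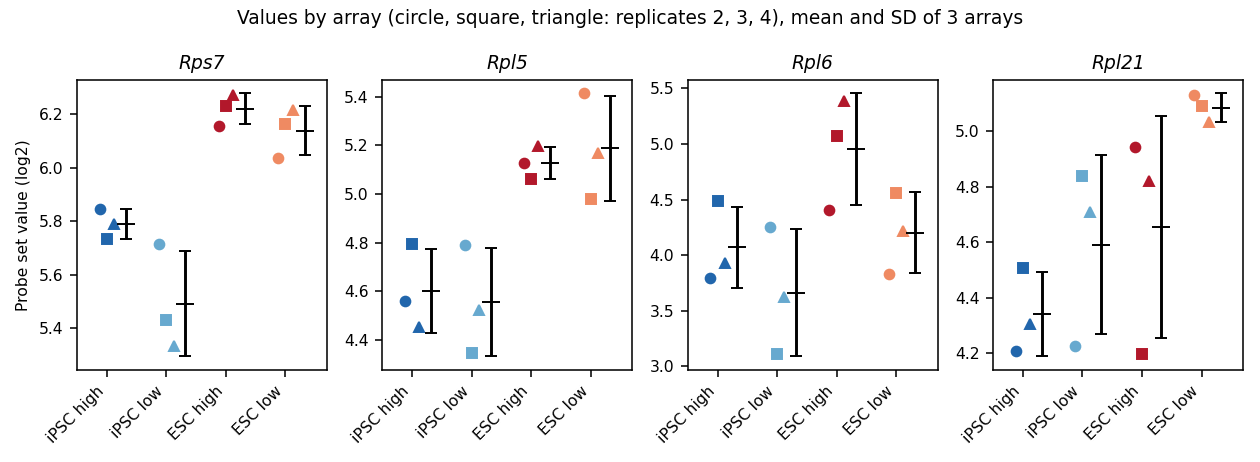
Log2 probe set values of Rps7, Rpl5, Rpl6 and Rpl21 on each array, by group, with symbols for the replicate number and a bar for mean ± SD of 3 arrays (each panel has its own axis, not starting at 0). Every iPSC array of Rps7 and Rpl5 is below every ESC array, whereas Rpl6 and Rpl21 overlap.

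The differences between cell types were then set out by chromosome, which the choice by name did not use. Rpl5, Rpl6, Rpl21, Rplp0 and Rpl9 lie on chromosome 5, and Rps7, Rps29 and Rpl10l on chromosome 12. All 8 were below 0 in iPSC minus ESC, from -0.71 to -0.06 with a median of -0.36, and 2 of them were called. Of the 50 ribosomal protein genes on other chromosomes, 20 were below 0, the median was 0.03, and 0 were called by limma (5 at an unadjusted p under 0.05). The count of 8 below 0 was the same with arrays centred on their medians and with cyclic loess between arrays. The other probe sets of those chromosomes stood in the same direction. Of 1221 above the median level on chromosomes 5 and 12, 361 were called lower (29.6%) and 6 higher, with a median of -0.26. Of 10578 on the other chromosomes, 79 were called lower (0.747%) and 171 higher, with a median of 0.02. On chromosome 5 alone 86.4% of 748 other probe sets were below 0 (median -0.24), and on chromosome 12 90.5% of 473 (median -0.29). The median of the 8 ribosomal genes was -0.27 in the high fraction, against -0.26 over those other probe sets, and -0.52 in the low fraction, against -0.26, with 7 of 8 below 0 in each. This grouping by chromosome was made with the results known and carries no test of its own, and what lies behind it was not tested.

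**Figure D5:**
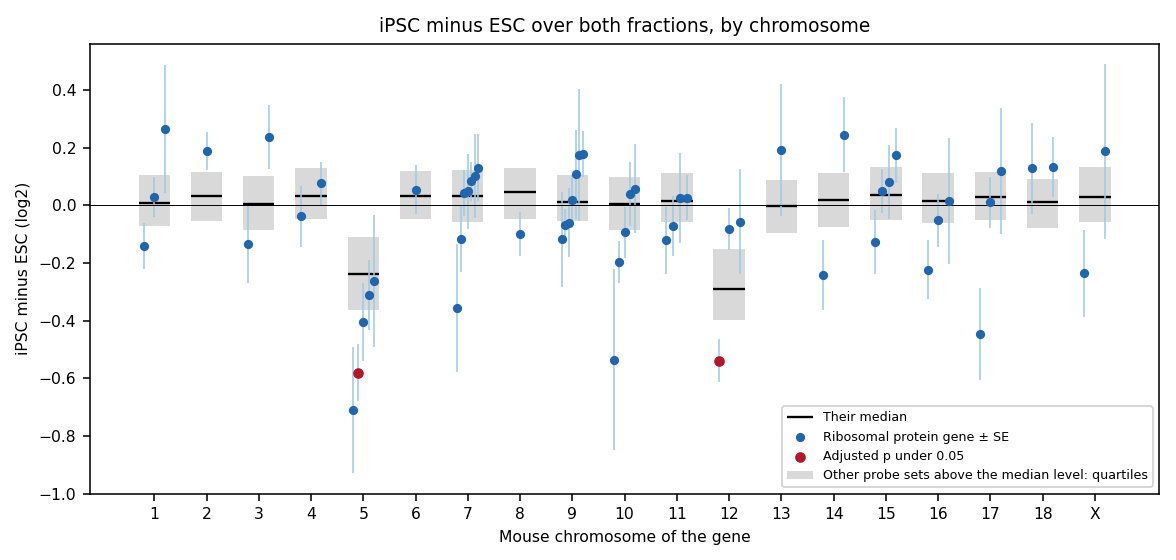
iPSC minus ESC difference (y axis, log2, averaged over the fractions) by mouse chromosome (x axis). Points are ribosomal protein genes with SE, red where the adjusted p was under 0.05, and grey boxes give the quartiles and black lines the median of other probe sets above the median level. Chromosomes 5 and 12 lie below 0 for both, with medians of -0.24 and -0.29 for the other probe sets.

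Called genes of the other ribosome production and translation lists lay on the same chromosomes. Of 191 measured genes of those 7 lists, which leave out the 4 ribosomal proteins outside the name rule, 12 were called in iPSC minus ESC. All 12 were lower, 7 on chromosome 5 and 5 on chromosome 12. Over all probe sets 1.96% were called lower and 0.916% higher. On chromosomes 5 and 12, 29.6% of the probe sets above the median level, ribosomal proteins left out, were called lower. Among 25 initiation factors 6 were lower: Eif2b1, a subunit of the eIF2 exchange factor, at -0.57, Eif5, the GTPase activator of eIF2, at -0.40, Eif3b at -0.32, Eif2b4 at -0.41, Eif2b2 at -0.30 and Eif4h at -0.34 on the log2 scale (adjusted p from 0.0039 to 0.0474, limma). The RNA polymerase I genes Twistnb (-0.40 ± 0.08) and Taf1b (-0.30 ± 0.07), the mTORC1 activator Rheb (-0.43 ± 0.09), and the ribosome rescue factors Nemf (-0.39 ± 0.07), Rnf10 (-0.36 ± 0.07) and Gcn1 (-0.32 ± 0.07) were lower too. By limma, 0 of 82 assembly factors (7 at an unadjusted p under 0.05, against 14.7% of all probe sets, median 0.02), 0 of 17 chaperones and importers (4 unadjusted, median -0.01) and 0 of 15 elongation and initiation factors with TOP mRNAs (1 unadjusted, median 0.03) were called. Of the 4 ribosomal proteins outside the name rule 0 were called. Rpl36al, also on chromosome 12, came nearest at -0.33 ± 0.09 (adjusted p = 0.0915, limma). Among the pluripotency genes 1 of 15 was called, Klf2, a factor of naive pluripotency, higher in iPSC by 0.39 ± 0.09.

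The tissue-restricted paralogs Rpl3l, Rpl10l and Rpl39l, the pseudogene Rps4l, and the parent genes Rpl3 and Rpl10 did not pass in either averaged comparison, and the parents Rpl39 and Rps4x were not analysed here. Rpl3l averaged 2.52 over the 12 arrays and Rpl3, which helps form the peptidyl transferase centre, 2.49, with iPSC minus ESC differences of 0.01 ± 0.09 and 0.17 ± 0.10. Rpl10l, a retrogene that stands in for X-linked Rpl10 in the male germ line, measured 4.90, 4.77 and 5.02 in iPSC high against 4.71, 4.89 and 4.99 in iPSC low, and 4.94, 5.04 and 4.88 in ESC high against 4.97, 5.03 and 4.92 in ESC low. The groups overlapped, and the difference was 0.01 ± 0.07 between fractions and -0.08 ± 0.07 between cell types. Rpl39l, the testis-rich copy of Rpl39, differed by 0.14 ± 0.10 between fractions and -0.22 ± 0.10 between cell types, neither past the threshold. Rps4l, a transcribed pseudogene, differed by 0.01 ± 0.08 and 0.05 ± 0.08.

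Beside Rps7 and Rpl5, other members linked to human disease or to specialised roles did not pass. Rps19, the gene most often mutated in Diamond-Blackfan anaemia, differed by -0.11 ± 0.13 between fractions and 0.05 ± 0.13 between cell types. Rps14, lost in human 5q- syndrome, differed by 0.29 ± 0.10 (adjusted p = 0.194, limma) and 0.13 ± 0.10. With iPSC low 3 left out, the averaged fraction difference of Rps14 was 0.38 and passed (adjusted p = 0.0409, limma). Rpsa, also known as the laminin receptor, differed by -0.22 ± 0.17 and -0.12 ± 0.17. Rpl22, whose loss in mice blocks αβ T cell development, differed by 0.02 ± 0.07 and 0.08 ± 0.07, and its 12 arrays lay between 10.13 and 10.50. Rpl23, another Mdm2-binding protein, differed by 0.04 ± 0.08 and 0.03 ± 0.08. A difference that misses the threshold in 3 or 6 arrays a side is not shown to be absent.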

How the data were processed

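The authors deposited 1 log2 value per probe set and array. Per the submitters' processing notes R 2.15.1, affy 1.36.1 and RMA were used. RMA background-corrects, quantile-normalizes and summarises probes on the log2 scale, so values are relative within an array and a shift in total RNA per cell does not show. The sources used here name neither chip definition nor genome build. Detection calls and intensities per probe were not analysed here, and precision is limited by the number of arrays.

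All tests used limma 3.58.1 in R 4.3.3: 1 mean per group over 12 arrays, moderated variances without a trend, no filter on low values, Benjamini-Hochberg adjustment over 25206 probe sets per comparison, threshold 0.05. Errors of differences are standard errors of that fit, and its p-values stand behind every adjusted p in the text, alternatives included. The 7 comparisons were high minus low in iPSC, in ESC and averaged, their difference, and iPSC minus ESC in each fraction and averaged. Some share arrays: the averaged comparisons use the same arrays as their parts. Arrays were called not overlapping where every array of one group exceeded every array of the other. The fit was tested on simulated data. Plots were made in Python 3.11.15 (matplotlib 3.10.9).

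Of 25206 probe sets, 23185 had 1 gene symbol in the annotation used. The other 2021 had none, and any with several symbols were counted among these. All 23185 were found by gene identifier in a RefSeq gene table (GRCm38.p6), where 0 symbols differed.

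Equal-numbered high and low arrays had residual correlations of 0.107, 0.127 and 0.213 in iPSC and 0.341, 0.233 and 0.283 in ESC. All were above 0, so numbers were taken to pair the fractions of a cell type. Over the ribosomal protein genes alone they were 0.0707, 0.223 and 0.202 in iPSC and -0.0502, 0.104 and 0.0755 in ESC. This pairing is inferred from the data, and the main fit did not use it. Between cell types the correlations were -0.0948 to 0.131, and numbers were not taken to pair these. The highest of them, low 4 at 0.131, was above the iPSC values of 0.107 and 0.127.

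Genes named were those past the threshold in any comparison, the 5 largest differences each way in high minus low in iPSC, in ESC and in iPSC minus ESC averaged, the 5 highest and 5 lowest by mean, a written list of stalk, p53-linked, disease-linked and tissue-restricted members, and per other list up to 4 called genes with the lowest p. Beyond that rule, Rps15a, Rpl29, Rps27 and Rps3 are described between fractions, Eif2b2 and Eif4h complete a count of 6, and Fau and Rpl36al a set of 4. Members and lists were chosen with earlier results of these data known.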

Additional observations from a re-analysis of the deposited data

How the results depend on the processing

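Over 22 alternatives at most per comparison (replicate block, median centring, cyclic loess, 6 arrays alone, variance trend, robust variances, array weights, a filter at the median level, named probe sets alone, each array left out), no value changed sign past the threshold, and the averaged iPSC minus ESC calls of Rps7 and Rpl5 held in every one that gives that comparison. Calls near the threshold moved. For high minus low averaged, 1 gene was higher, and 2 were with the replicate block within cell types (Rpl37 0.0185, Rps15a 0.0475) and with it as a random effect. With single arrays left out 0 to 2 were higher, Rps14 among them without iPSC low 3 (adjusted p = 0.0409, limma). In the lower direction 0 were called, against 2 with the random block (Rpl29 0.0289, Rps27 0.0411), 1 (Rpl29) with median centring, the trend, array weights or the level filter, and 0 to 2 with single arrays left out. For high minus low in iPSC 0 were lower, against 1 with the random block (Rps27 0.0481) and 0 to 1 with single arrays left out (Rpl32l without iPSC low 2). For iPSC minus ESC in the low fraction 1 was lower, against 0 with its 6 arrays alone, 2 with the level filter (Rpl5 0.0436) and 0 to 1 with single arrays left out. For iPSC minus ESC averaged 0 were higher, against 1 with the trend (Rps21 0.0435), and 2 were lower, against 3 without ESC high 3 (Rpl21 0.0369). The replicate block changed no other call. The causes were not tested. Over all probe sets, high minus low averaged gave 403 higher and 228 lower, against 361 and 368 with median centring, 523 and 417 with the block within cell types and 644 and 497 with the random block. With single arrays left out, high minus low gave 0 to 148 higher and 1 to 63 lower in iPSC (88 and 50 with all arrays; 0 and 1 without iPSC high 4) and 17 to 98 higher and 1 to 18 lower in ESC (77 and 13 with all). The medians over the 58 genes ranged from -0.01 to 0.07 for high minus low averaged and from -0.04 to 0.01 for iPSC minus ESC averaged. Without detection calls, differences of the 4 genes under the lower quartile cannot be set against background.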

Other observations

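The table also held 18 probe sets named for ribosomal protein pseudogenes, which the choice by name leaves out. Of these, 9 had a mean at or above the median probe set, and 0 of 18 passed the threshold in any of the 7 comparisons (limma). Rpl5-ps2 came nearest, at 0.40 ± 0.11 for high minus low averaged (adjusted p = 0.0778, limma), with 0.65 ± 0.15 in iPSC (adjusted p = 0.082, limma) and 0.15 ± 0.15 in ESC. Rps12-ps24 stood at 0.64 ± 0.19 in iPSC and 0.21 ± 0.19 in ESC, and Rpl17-ps9 at 0.67 ± 0.21 in iPSC and 0.14 ± 0.21 in ESC. Their parent genes Rpl5 and Rpl17 had iPSC differences of 0.05 ± 0.14 and -0.17 ± 0.22. Between cell types Rpl5-ps2 differed by -0.02 ± 0.11, where Rpl5 differed by -0.58 ± 0.10. Whether probes are shared between these copies was not tested.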
